A study of Arabidopsis thaliana with 39 samples.

Results

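Arabidopsis thaliana seedlings of the accession Col-0 that had spent 6 h with 20 mM urea were compared with water-treated seedlings harvested at 0 h (mock), by RNA sequencing of whole seedlings. The 2 groups held 3 libraries each, 6 of the 39 libraries of the series, and all 20001 genes of the deposited table were compared. The seedlings were 14 days old, wild type, and grown in liquid culture with sucrose under continuous light. The other libraries came from the same kind of seedling given L-glutamate (L-Glu, 20 mM), urea or salicylic acid (SA, 1 mM) for 6 to 48 h. No water group at 6 h was analysed here, so an effect of urea and an effect of 6 h in culture or of handling cannot be told apart in the comparison with mock. L-Glu 6 h and SA 6 h, with the same time in culture, were therefore set beside it. Whole seedlings were measured, so fewer cells of a type and less RNA per cell cannot be told apart in any value below. Separate cultures are not stated for the replicates, so the p-values cover only the spread among libraries of one group, which may be technical. That spread was estimated from all 39 libraries of the series.

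Urea enters plant cells through the proton symporter DUR3 and through aquaporins, and is split to ammonium and carbon dioxide by the nickel enzyme urease, which needs the accessory proteins UreD, UreF and UreG. The ammonium is then taken into glutamine and glutamate, as is the ammonium that nitrate reductase and nitrite reductase make from nitrate. Nitrate is also a signal: it induces its own transporters and reductases, and it raises cytokinin production, which in turn induces the type-A response regulators (ARR genes).

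The deposited values are normalized, the library sums lay between 2793918 and 2828598 in urea and between 2706596 and 2964406 in mock, and the sequencing depth behind them is unknown. Libraries of one group correlated with r = 0.957 to 0.969 across genes, which are not independent replicates. The labelled tissue was borne out by its markers. The green tissue markers CA1, RBCS1A and LHCB3 and the root markers PYK10, CASP1, EXP7 and COBL9 were at 14 or more in every library of both groups, and none of them was called between the groups. The summed value of the 26 photosynthesis genes was 213855 to 275591 in mock and 224181 to 243859 in urea. The summed value of the 11 root markers was 5531 to 6044 in mock and 3659 to 4755 in urea, with no overlap, and most of it came from PYK10, a beta-glucosidase of root endoplasmic reticulum bodies. Its values were 5594, 5452 and 5134 in mock and 3827, 4340 and 3316 in urea (adjusted p = 0.395, limma). The median log2 difference of the 11 markers was 0.05. The part of root content in the results below was not tested.

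After 6 h in urea 353 of 20001 genes differed from mock 0 h, 1.76% of those tested. Of these, 244 were higher (1.22%) and 109 lower (0.545%). A gene was called where its adjusted p was under 0.05 (limma on log2(value + 1), one fit of all 39 libraries, Benjamini-Hochberg over all genes). Of the called genes 237 differed by at least 2-fold, and the median over all genes was -0.01 on the log2 scale. In 341 called genes (96.6%) the replicates of the groups did not overlap, against 4205 of all genes (21.0%). The count depended on single libraries: it was 131 without urea replicate 3, 143 without mock replicate 1, 196 without urea replicate 2 and 230 without urea replicate 1. It was 679 in a fit of these 6 libraries alone and 726 in a fit of mock and the 4 urea times.

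**Figure D1:**
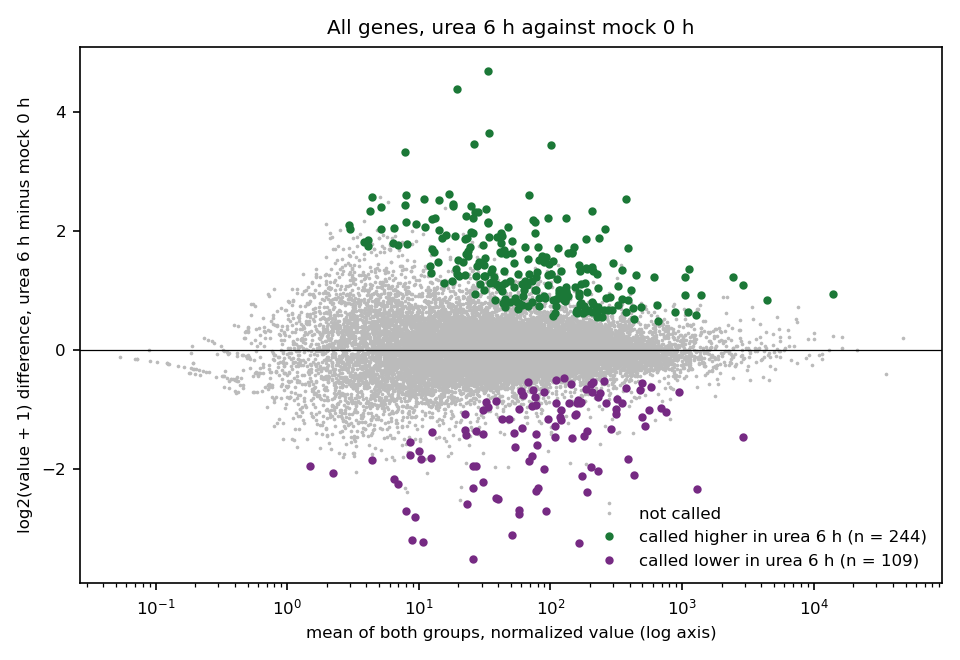
Log2(value + 1) difference between urea 6 h and mock 0 h (vertical axis) against the mean normalized value of both groups (horizontal log axis), one point per gene for 20001 genes. The 244 genes called higher (green) and 109 called lower (purple) lie outside a band around 0 that is widest at low values.

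The 2 steepest increases were those of CYP71A12, a cytochrome P450 that makes indole-3-acetonitrile in the pathways to camalexin and other indole defence compounds, and of DIN2, a beta-glucosidase known to be induced by darkness and sugar shortage. CYP71A12 was at 0, 2.09 and 1.6 in mock and at 80.7, 15.7 and 99.9 in urea, a log2 difference of 4.69 ± 0.631 (SE, adjusted p = 2.18e-05, limma). DIN2 was at 0, 2.21 and 0.772 in mock and at 41.9, 24.0 and 49.0 in urea, a difference of 4.4 ± 0.583 (adjusted p = 1.92e-05, limma). In both genes every urea library lay above every mock library. The 12 highest and 12 lowest changes were taken from called genes without overlap that averaged 10 or more in the higher group. The lack of overlap was thus fixed by the choice. In the list for sugar starvation and dark, to which DIN2 belongs, 1 of 19 was called higher (DIN2) and 1 lower, with a median of -0.03. The shares over all genes were 1.22% and 0.545%. Replicate 2 of either group lists no gene at exactly 0, while the other libraries list 259 and 365 genes at 0 in mock and 274 and 293 in urea, so a value of 0 was not read as absence. Their promoters are shown because they belong to the genes that rose most. The windows run from 250 bases before to 50 after the annotated start, in RefSeq's TAIR10.1 (chr2:13101322-13101621, minus strand, and chr3:22216290-22216589, plus strand), and capitals mark a match to 1 of 9 searched motifs.
CYP71A12: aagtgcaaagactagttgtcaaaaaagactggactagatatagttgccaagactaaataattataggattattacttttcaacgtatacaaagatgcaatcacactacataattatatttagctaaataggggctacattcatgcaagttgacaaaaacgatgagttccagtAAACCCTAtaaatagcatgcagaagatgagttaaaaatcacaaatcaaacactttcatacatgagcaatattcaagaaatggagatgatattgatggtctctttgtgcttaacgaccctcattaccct
DIN2: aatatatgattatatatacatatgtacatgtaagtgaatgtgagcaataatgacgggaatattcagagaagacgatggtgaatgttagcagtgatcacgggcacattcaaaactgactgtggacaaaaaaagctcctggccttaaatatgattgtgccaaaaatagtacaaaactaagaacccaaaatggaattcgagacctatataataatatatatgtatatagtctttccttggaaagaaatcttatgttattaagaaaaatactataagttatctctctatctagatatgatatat
The motifs, searched on both strands, were CACGTG (G-box), AAAATATCT (evening element), AAAAATCT (a binding site of the clock protein CCA1), TTGACC and also TTGACT (W-boxes), GCCGCC (GCC box), GATAAG (I-box), AAACCCTA (telo box) and TGGGCC (site II element). None is contained in another, although matches can overlap. The CYP71A12 window held AAACCCTA, which is in 5.5% of 19886 windows of all genes, in 4.5% of the 244 genes called higher and in 4.6% of the 109 called lower. The DIN2 window held none. TTGACT was in 22.3% of all windows, 25.8% of the higher and 26.6% of the lower genes, and TGGGCC in 18.6%, 9.4% and 11.9%. These shares are descriptions, not evidence of binding.

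The other 10 of the 12 highest changes, chosen in the same way, had log2 differences of 2.46 to 3.66. AT1G26380, an oxidoreductase of the berberine bridge enzyme family, was at 1.44, 5.24 and 5.66 in mock and 73.8, 29.1 and 89.9 in urea (log2 difference 3.66 ± 0.575, adjusted p = 0.000326, limma). HAK5, the high-affinity potassium transporter of roots, was at 0.805, 3.2 and 7.47 in mock and 62.5, 20.8 and 62.0 in urea (3.47 ± 0.632, adjusted p = 0.00184, limma). DOX1, an alpha-dioxygenase that makes oxylipins, was at 87.8, 104 and 126 in mock and 781, 376 and 790 in urea (2.54 ± 0.314, adjusted p = 9.45e-06, limma). In all 3 genes urea replicate 2 was the lowest urea library. The others were AT2G15020 (3.46), the germin-like protein GLP4 (3.33), the receptor-like kinase CRK36 (2.62), AT1G64590 (2.61), the transcription factor NAC042 (2.61), the chitinase AT2G43570 (2.52) and the lambda-class glutathione transferase GSTL1 (2.46), all as log2 differences. Without mock replicate 1 the calls of CRK36 (adjusted p = 0.142, limma), NAC042 (0.102) and AT2G43570 (0.0535) were lost, and that of NAC042 also without urea replicate 3 (0.0905).

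Of the 12 genes with the lowest changes, chosen in the same way, 8 stand in a longer list of low-oxygen genes. That list, 44 of 20001 genes, was drawn up after values were seen, so the overlap is a description and no independent support. AT4G33560 and AT4G10270, related proteins annotated as wound-responsive, and AT1G33055 belong to the genes that shortage of oxygen is known to induce in Arabidopsis seedlings. AT4G33560 was at 56.8, 40.5 and 42.9 in mock and 0.231, 4.21 and 9.99 in urea (log2 difference -3.51 ± 0.569, adjusted p = 0.000418, limma). HRA1 (AT3G10040), a trihelix factor that restrains the low-oxygen regulator RAP2.12, was at 339, 322 and 225 in mock and 52.6, 16.7 and 30.0 in urea (-3.24 ± 0.784, adjusted p = 0.0223, limma). Neither gene had overlapping groups, as the choice required. The HRA1 call was lost without urea replicate 2 (adjusted p = 0.128, limma) or 3 (0.0912) and without mock replicate 1 (0.106) or 2 (0.071). The promoters of these genes are shown for the fall (chr4:16134907-16135206, plus strand, and chr3:3098368-3098667, minus strand, TAIR10.1).
AT4G33560: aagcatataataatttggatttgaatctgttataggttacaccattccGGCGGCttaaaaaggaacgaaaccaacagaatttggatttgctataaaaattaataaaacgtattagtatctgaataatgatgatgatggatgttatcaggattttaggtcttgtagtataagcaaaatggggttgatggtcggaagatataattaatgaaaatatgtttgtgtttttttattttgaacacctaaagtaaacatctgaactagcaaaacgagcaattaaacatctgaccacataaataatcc
HRA1: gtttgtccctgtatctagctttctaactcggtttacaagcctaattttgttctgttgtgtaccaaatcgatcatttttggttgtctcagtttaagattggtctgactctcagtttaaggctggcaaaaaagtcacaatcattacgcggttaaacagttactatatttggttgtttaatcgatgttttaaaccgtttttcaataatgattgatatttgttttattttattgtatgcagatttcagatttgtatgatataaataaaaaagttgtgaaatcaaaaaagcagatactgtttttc
In the AT4G33560 window the capitals are a match to GCCGCC on the other strand, a motif in 2.6% of all windows, and the HRA1 window held none of the 9.

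The other low-oxygen genes among the 12 were AT1G33055 (-3.22), AT4G10270 (-3.19), AT3G27220 (-2.70), the stearoyl-ACP desaturase SAD6 (-2.68), SRO5 (-2.58), a relative of the stress protein RCD1, and PCO2 (-2.50), a cysteine oxidase that marks proteins for oxygen-dependent breakdown, all as log2 differences. AT3G27220 had the lowest p of these, with 194, 181 and 110 in mock and 28.4, 24.9 and 18.0 in urea (adjusted p = 1.07e-07, limma). The remaining 4 were the type-A response regulators ARR6 (-3.10) and ARR7 (-2.75), the nitrate transporter NRT1.8 (-2.80) and AT1G55390 (-2.70). Calls were lost for AT1G33055 without urea replicate 2 (adjusted p = 0.0654, limma) or mock replicate 1 (0.0692), and for AT1G55390 without urea replicate 3 (0.171), mock replicate 1 (0.102) or 2 (0.0746). That of AT4G10270 was lost without any 1 of 5 libraries, urea replicate 1 (0.184) or 2 (0.214) and mock replicate 1 (0.137), 2 (0.108) or 3 (0.118).

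**Figure D2:**
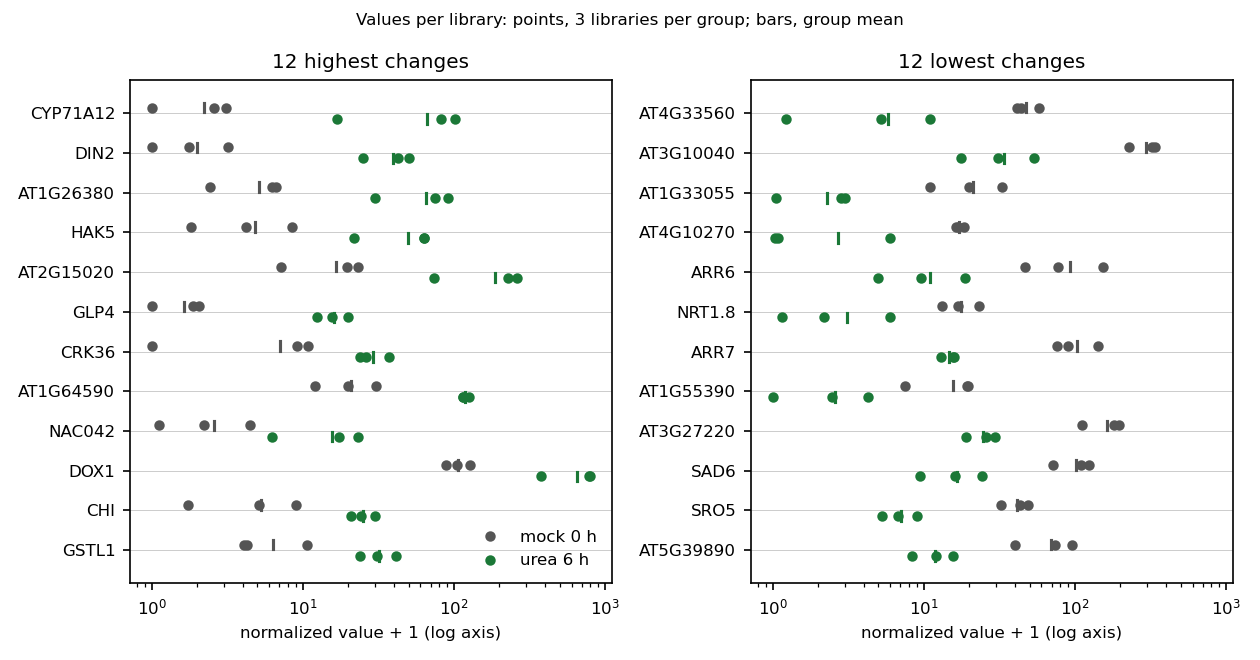
Normalized value + 1 (log axis) in each of the 3 mock 0 h libraries (grey) and 3 urea 6 h libraries (green) for the 12 genes with the highest and the 12 with the lowest change, with bars at group means. The groups overlap in none of the 24 genes, as the rule that chose them required. AT3G10040 is HRA1, AT5G39890 is PCO2 and CHI is the chitinase AT2G43570.

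Gene groups were read from 24 lists, with 401 different genes in the table. By median, the lists lowest in urea were those for hypoxia, aliphatic glucosinolates, cytokinin and nitrate. Those highest were sulfur starvation (median 0.75) and flavonoids (0.69), as log2 differences, with 2 and 1 members called higher, against 1.22% of all genes. All members were above 0 in both of these lists, 14 and 21, while 48.4% of all genes were. Without mock replicate 1 no member of either list was called, and in the sulfur list that library had a mean log2(value + 1) of 6.03, against 7.46 and 7.03 in the other mock libraries. The sulfur count was 1 without any one urea library and 4 without mock replicate 2, and the flavonoid count was 0 without urea replicate 2 or 3.

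**Figure D3:**
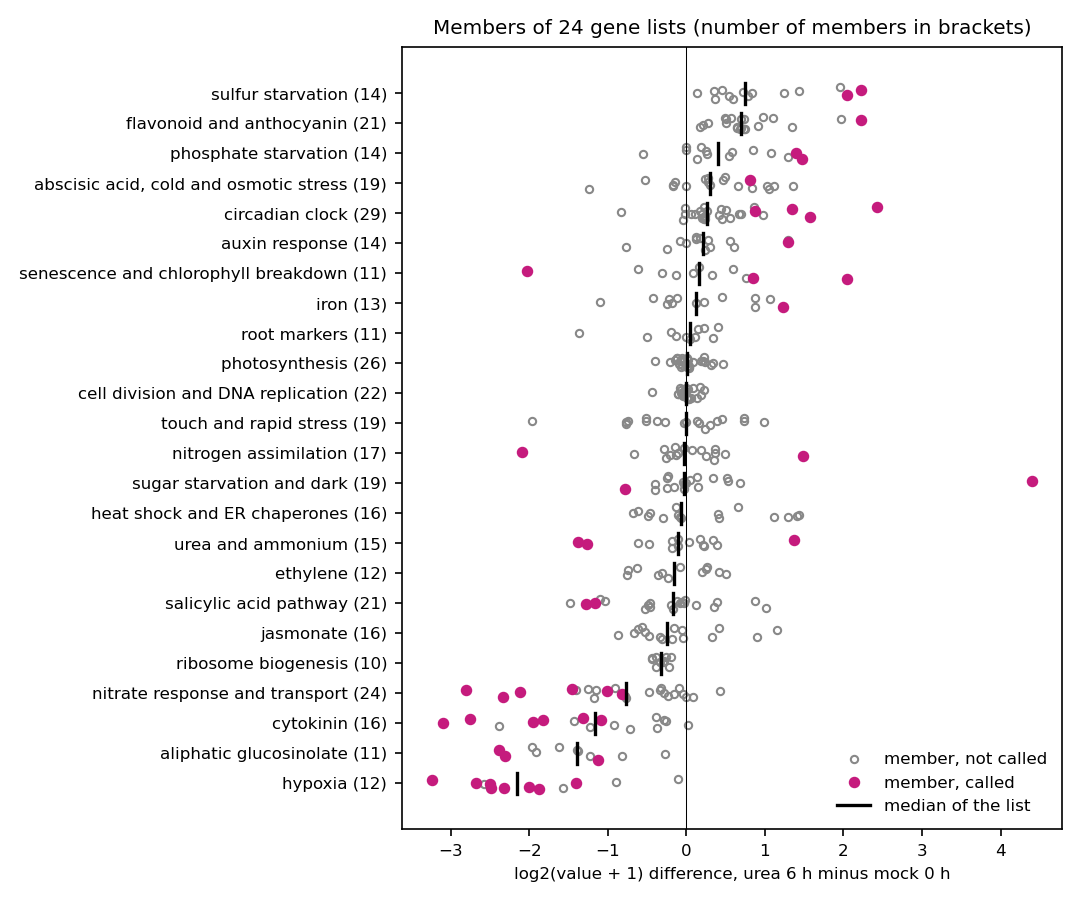
Log2(value + 1) difference between urea 6 h and mock 0 h for each member of 24 gene lists, with called members in pink and the list's median as a black bar. The hypoxia and aliphatic glucosinolate lists lie wholly below 0 and the sulfur starvation and flavonoid lists wholly above it.

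Most low-oxygen genes on the hypoxia list were lower in urea. Of its 12 members 8 were called lower and none higher, against 0.545% of all genes called lower, and all 12 differences were below 0 (median -2.16). HB1, the class 1 haemoglobin that removes nitric oxide, was at 150, 137 and 116 in mock and 23.2, 29.1 and 26 in urea (log2 difference -2.32 ± 0.321, adjusted p = 3.32e-05, limma). The fermentation enzyme PDC1, pyruvate decarboxylase, was at 244, 121 and 77.2 in mock and 35.5, 29.1 and 32.0 in urea (-2.00 ± 0.391, adjusted p = 0.00341, limma). ADH1, alcohol dehydrogenase, was at 150, 110 and 71.3 in mock and 32.2, 33.2 and 21.0 in urea (-1.87 ± 0.389, adjusted p = 0.00576, limma). In all 3 genes the mock libraries lay above every urea library, with mock replicate 1 the highest. The cysteine oxidase PCO1 (-2.49) and the ethylene response factor HRE1 (-1.41) were also called lower. The sucrose synthases SUS1 (-0.11) and SUS4 (-0.90) and the regulators LBD41 (-2.57) and HRE2 (-1.57) were not. The 8 calls became 3 without mock replicate 1, 4 without urea replicate 3 and 5 without mock replicate 2. PDC1 was not called without mock replicate 1 (adjusted p = 0.0681, limma), nor ADH1 without it (0.0709) or urea replicate 3 (0.0659). PCO1 was not called without urea replicate 1 (0.0586) or 3 (0.0531) or mock replicate 1 (0.063) or 2 (0.0654), nor HRE1 without urea replicate 3 (0.307) or mock replicate 1 (0.222) or 2 (0.0638). Of the 44 genes of the longer list, drawn up after values were seen, 15 were called lower and none higher (median -0.92). Those 15 became 7 without mock replicate 1, 9 without mock replicate 2 and 10 without urea replicate 3.

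Of DUR3, urease and its 3 accessory genes, the transporter rose and the others were not called. DUR3 (chr5:18390942-18395928, TAIR10.1) was at 17.4, 17.4 and 24.5 in mock and 39.5, 56.0 and 63.0 in urea, a log2 difference of 1.37 ± 0.25 (adjusted p = 0.00184, limma), and kept its call without any single library. URE, the urease itself, was at 97.5, 105 and 92.5 in mock and 91.7, 82.8 and 99.9 in urea (-0.10 ± 0.162, adjusted p = 0.883, limma). The differences were 0.17 ± 0.154 for UREG, -0.11 ± 0.545 for URED and -0.62 ± 0.30 for UREF. Of the 15 members of the list for urea and ammonium, the ammonium transporter AMT1;3 (-1.38, adjusted p = 0.0454, limma) and the vacuolar aquaporin TIP2;1 (-1.27, adjusted p = 0.0332) were called lower and DUR3 higher, against 1.76% of all genes called in either direction. Neither lower call was firm: that of AMT1;3 was lost without urea replicate 1 (0.143) or 3 (0.238) and without mock replicate 1 (0.0806), 2 (0.101) or 3 (0.189). That of TIP2;1 was lost without urea replicate 1 (0.0564), 2 (0.0743) or 3 (0.21) and without mock replicate 1 (0.242).

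Some nitrate genes were lower. Of 24 members of the nitrate list 6 were called lower, against 0.545% of all genes, and none higher (median -0.77). NIA1, a nitrate reductase, was at 3583, 1368 and 1640 in mock and 402, 392 and 398 in urea (log2 difference -2.33 ± 0.438, adjusted p = 0.00248, limma). NRT1.8, which takes nitrate out of the xylem sap, was at 22.2, 15.8 and 12 in mock and 0.156, 1.19 and 4.99 in urea (-2.80 ± 0.553, adjusted p = 0.00388, limma). The kinase CIPK3 was at 365, 246 and 238 in mock and 65.4, 62.1 and 62.0 in urea (-2.12 ± 0.223, adjusted p = 3.06e-07, limma). The urea libraries of NIA1 and CIPK3 lay within a few percent of each other, while the mock libraries were spread, with replicate 1 the highest. The second nitrate reductase NIA2 (-1.45), the nitrite reductase NIR1 (-1.01) and UPM1 (-0.82), which makes the sirohaem precursor of nitrite reductase, completed the 6. The nitrate transceptor NRT1.1 (0.43) and the regulator NLP7 (0.09) were above 0 and not called. Without mock replicate 1, 3 members were called lower. NIA2 (adjusted p = 0.131, limma), NIR1 (0.0535) and UPM1 (0.137) were then lost, NIA2 also without urea replicate 2 (0.0678), and UPM1 without urea replicate 2 (0.11) or 3 (0.0531). In the fit of these 6 libraries alone 11 members were called lower.

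In nitrogen assimilation 2 of 17 genes were called, in opposite directions, against 1.76% of all genes called in either direction. ASN2, an asparagine synthetase, was at 970, 537 and 594 in mock and 157, 158 and 161 in urea (log2 difference -2.09 ± 0.188, adjusted p = 1.75e-08, limma). Its level at 6 h was lower still in SA (urea minus SA 0.99, adjusted p = 0.000111, limma) and in L-Glu (0.58, adjusted p = 0.0399). The call against L-Glu was lost whichever library of these groups was left out. The cytosolic glutamine synthetase GLN1;4 was at 9.61, 22.1 and 14.1 in mock and 36.1, 45.4 and 46.0 in urea (1.48 ± 0.334, adjusted p = 0.0119, limma). ASN1, the asparagine synthetase of darkened leaves, had a difference of -0.03. The GLN1;4 call was lost without urea replicate 2 (adjusted p = 0.0599, limma) or 3 (0.0742) or mock replicate 1 (0.13). NRT2.5, a high-affinity nitrate transporter known from nitrogen starvation and named after its values were seen, was at 2.28, 6.6 and 3.27 in mock and 27.1, 18.8 and 18.0 in urea (2.21 ± 0.354, adjusted p = 0.000398, limma).

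Some cytokinin genes were lower. Of 16 members 6 were called lower, against 0.545% of all genes, and none higher (median -1.16), and 1 difference was above 0. The called ones were 5 type-A response regulators, which damp the cytokinin signal, and the cytokinin response factor CRF5. ARR7 was at 141, 89.0 and 75.5 in mock and 14.7, 14.6 and 12.0 in urea (adjusted p = 1.03e-05, limma), and ARR6 at 153, 46.0 and 76.0 in mock and 8.52, 17.6 and 4.0 in urea (adjusted p = 0.000484, limma). Both kept their call without any single library. ARR4 (-1.32), ARR5 (-1.95), ARR9 (-1.09) and CRF5 (-1.83) did not, and 2 members stayed called without mock replicate 1 and 3 without urea replicate 1. Without mock replicate 1 the adjusted p (limma) was 0.0684 for ARR4, 0.273 for ARR5, 0.187 for ARR9 and 0.228 for CRF5. ARR5 was also lost without urea replicate 1 (0.0717) or 3 (0.269) or mock replicate 3 (0.0711). ARR9 was lost without urea replicate 1 (0.117), 2 (0.0638) or 3 (0.0832), and CRF5 without urea replicate 1 (0.125) or 2 (0.167) or mock replicate 2 (0.0946). CYP735A2, which makes trans-zeatin, had a difference of -2.38 and the synthesis gene IPT3 one of -1.22, neither called.

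Aliphatic glucosinolate genes, which make sulfur-containing defence compounds from methionine, were all below 0 (11 of 11, median -1.39), and 3 were called lower, against 0.545% of all genes. These were the chain-elongation aminotransferase BCAT4 (-2.39), the S-oxygenase FMOGS-OX1 (-2.31) and the sulfotransferase SOT18 (-1.12). BCAT4 was at 440, 241 and 278 in mock and 53.7, 68.3 and 53.0 in urea (adjusted p = 0.0355, limma). Replicates did not overlap in 10 of the 11, against 21.0% of all genes. None of the 11 was called without urea replicate 1, urea replicate 3, mock replicate 1 or mock replicate 3, while 9 were in the fit of the 6 libraries alone and 9 in the fit of mock and the urea times. The adjusted p of BCAT4 (limma) was 0.105, 0.0785 and 0.154 without urea replicates 1 to 3 and 0.181, 0.0607 and 0.0751 without mock replicates 1 to 3. FMOGS-OX1 was lost without urea replicate 1 (0.0508), 2 (0.164) or 3 (0.155) or mock replicate 1 (0.181) or 3 (0.124), and SOT18 without urea replicate 1 (0.0663) or 3 (0.144) or mock replicate 1 (0.178) or 3 (0.0694). The regulator MYB28 had a difference of -0.27.

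Genes of detoxification and indole defence were mixed. Lists for these, and for suberin, were drawn up after values were seen. Of 37 tau and phi glutathione transferases 6 were called higher and 1 lower (median 0.43), against 1.22% and 0.545% of all genes. GSTF7 was at 49.4, 68.2 and 77.1 in mock and 462, 190 and 401 in urea (log2 difference 2.34 ± 0.314, adjusted p = 2.15e-05, limma). GSTU24 was at 3.8, 20.4 and 9.73 in mock and 54.2, 40.5 and 65.0 in urea (2.37 ± 0.418, adjusted p = 0.00127, limma). The one that was lower was GSTF14 (-2.37, adjusted p = 0.0485, limma), at 143, 116 and 128 in mock and 17.9, 40.2 and 19.0 in urea. It lost its call whichever of the 6 libraries was left out (adjusted p 0.0592 to 0.213, limma). Near-identical family members can share reads, so single members are uncertain. The 6 higher calls became 2 without urea replicate 3 and 2 without mock replicate 1. In the indole list of 11, CYP71A12 and GSTU4 (2.45) were called higher and CYP79B3 (-1.0), an early enzyme that makes indole-3-acetaldoxime, lower. AT1G26380, described above, was entered in that list under a name that the reference table does not give for it, so it is not among the 11, although it was called higher. CYP79B3 lost its call whichever library was left out (adjusted p 0.0683 to 0.305, limma), and GSTU4 lost it without urea replicate 3 (0.114) or mock replicate 1 (0.139). The late camalexin enzyme PAD3 had a difference of 1.29 and was not called.

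Some genes of suberin, the waxy polyester laid down in the root endodermis and periderm, were higher. Of 13 members, listed after values were seen, 7 were called higher, against 1.22% of all genes, and all 13 differences were above 0 (median 1.33). The acyltransferase GPAT5 was at 5.59, 14.9 and 8.33 in mock and 57.5, 18.7 and 50 in urea (log2 difference 1.97 ± 0.364, adjusted p = 0.00208, limma). The transporter ABCG6 was at 14.2, 49.2 and 40.4 in mock and 240, 97.1 and 135 in urea (2.22 ± 0.425, adjusted p = 0.00281, limma). The reductase FAR4 was at 15.1, 20.0 and 30.5 in mock and 101, 56.9 and 81.9 in urea (1.84 ± 0.293, adjusted p = 0.000366, limma). Urea replicate 2 was the lowest urea library in each of these. The hydroxylase CYP86B1 (1.62), FAR5 (1.26), the elongase KCS2 (1.24) and ABCG20 (1.17) were also called, and the aromatic-acid transferase ASFT (0.73) and the regulator MYB41 (1.71) were not. Without mock replicate 1, 3 stayed called, and ABCG6 was lost (adjusted p = 0.0594, limma). Without urea replicate 1 and without urea replicate 3, 4 did. FAR5 was lost without urea replicate 1 (0.139) or 3 (0.226) or mock replicate 1 (0.31) or 3 (0.0843), and ABCG20 without urea replicate 1 (0.172) or 3 (0.105) or mock replicate 1 (0.181). KCS2 was lost without urea replicate 1 (0.235) or 3 (0.169) or mock replicate 1 (0.229), 2 (0.0637) or 3 (0.0873). Of the root markers given above none was called, and those of the endodermis had log2 differences of 0.40 (CASP1), 0.15 (MYB36), 0.05 (SCR) and 0.23 (SHR).

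Some clock genes were higher. Of 29 members 4 were called higher, against 1.22% of all genes, and none lower, and 25 differences were above 0 (median 0.26). RVE1, a morning transcription factor, was at 49.6, 43.8 and 44.4 in mock and 105, 151 and 167 in urea (log2 difference 1.57 ± 0.316, adjusted p = 0.00446, limma). It kept its call without any single library. The pseudo-response regulator PRR9 (2.43), COL2 (1.34) and LNK1 (0.88) did not. PRR9 was lost without urea replicate 2 (adjusted p = 0.11, limma) or 3 (0.066) or mock replicate 1 (0.217) or 3 (0.0687). COL2 was lost without urea replicate 2 (0.12) or 3 (0.163) or mock replicate 2 (0.121), and LNK1 without urea replicate 2 (0.0974) or 3 (0.125) or mock replicate 3 (0.0789). Without urea replicate 2, and without urea replicate 3, 1 clock gene stayed called, and 2 did without mock replicate 3. Time in culture and urea cannot be told apart here either.

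In the nutrient and stress lists single members were called. The phosphate starvation genes SPX1, a sensor of phosphate status, (1.47) and PAP17, an acid phosphatase, (1.39) were called higher among 14, against 1.22% of all genes. Among the 14 sulfur starvation genes the beta-glucosidase BGLU28 (2.22) and GGCT2;1 (2.04), which breaks down glutathione, were called higher. GGCT2;1 was at 34.1, 200 and 128 in mock and 420, 359 and 420 in urea, and mock replicate 1 was far below the others. FER1, the iron storage protein ferritin, was at 848, 1522 and 2240 in mock and 3704, 2888 and 3481 in urea (log2 difference 1.23 ± 0.273, adjusted p = 0.0106, limma). The anthocyanin regulator MYB90, listed as PAP2 (2.22), the phosphatase ABI1 of abscisic acid signalling (0.81), the auxin-conjugating enzyme GH3.5 (1.29), and the senescence genes SAG13 (2.04) and NYE1 (0.85) were the other list members called higher. Called lower were SAG21 (-2.03), a small stress protein, TPS10 (-0.78), of the trehalose phosphate family, and the defence regulators WRKY18 (-1.28) and SARD1 (-1.16). Over all genes 0.545% were called lower. In the salicylic acid list, which holds WRKY18 and SARD1, 19 of 21 genes were not called (median -0.17). The iron list held 13 genes, the abscisic acid list 19 and the auxin list 14, each with 1 called. The senescence list held 11, with 2 called higher and 1 lower. Without mock replicate 1 the adjusted p (limma) was 0.128 for SPX1, 0.334 for BGLU28, 0.115 for GGCT2;1, 0.169 for FER1, 0.116 for MYB90, 0.0695 for ABI1, 0.0619 for GH3.5, 0.101 for SAG13, 0.053 for SAG21, 0.128 for TPS10 and 0.179 for SARD1. WRKY18 was lost without mock replicate 2 (0.173) and PAP17 without it (0.0643) or urea replicate 1 (0.056). NYE1 kept its call without any single library. Further losses followed the removal of urea replicate 1 (SPX1 0.0877, BGLU28 0.0935, FER1 0.0564, SAG13 0.0882, WRKY18 0.106, SARD1 0.15) or urea replicate 2 (BGLU28 0.0872, MYB90 0.0634, GH3.5 0.0725, SAG13 0.15, WRKY18 0.11, SARD1 0.244). The same held for urea replicate 3 (SPX1 0.106, BGLU28 0.174, FER1 0.063, MYB90 0.228, ABI1 0.0787, GH3.5 0.149, SAG13 0.0659, TPS10 0.0996), mock replicate 2 (MYB90 0.101, SARD1 0.325) and mock replicate 3 (SPX1 0.1, GH3.5 0.0856, SAG13 0.228).

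No member was called in the lists for photosynthesis (26 genes), cell division (22), touch and rapid stress (19), jasmonate (16), heat shock and chaperones (16), ethylene (12), root markers (11) and ribosome biogenesis (10). Over all genes 1.76% were called in either direction. At that share lists of this size can hold no called gene, so the absence of calls does not show that they were unchanged. The median log2 differences of photosynthesis, 0.01, and of cell division, 0.00, lay next to that of all genes, -0.01. All 10 ribosome biogenesis genes were below 0 (median -0.32). Mock replicate 2 stood apart in the touch list, with a mean log2(value + 1) of 6.61 against 4.47 and 4.92 in the other mock libraries and 4.74 to 5.73 in urea. In the jasmonate list it was at 5.76, against 4.77 and 5.22 in mock and 5.02 to 5.27 in urea.

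At the same time in culture, more genes were called between urea and the other treatments than between urea and mock 0 h. Urea 6 h against L-Glu 6 h gave 2304 called genes (11.5%), 631 higher in urea (3.15%) and 1673 lower (8.36%). Under quantile normalization the split was 1188 higher and 1540 lower. Urea 6 h against SA 6 h gave 5882 (29.4%), 2703 higher (13.5%) and 3179 lower (15.9%). The larger side turned with the scaling: 3176 were higher and 2815 lower under quantile normalization, and 2968 higher and 2797 lower with every library at the same total. L-Glu 6 h replicate 2 lay farther from its group than any other of the 12 libraries at 0 and 6 h (root mean square deviation 0.476 on the log2 scale, the others 0.309 to 0.375), and without it 2882 genes were called against L-Glu. Without L-Glu replicate 3 it was 1347, and without replicate 1 it was 1435.

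The lists with calls below mock gave other counts against the groups of the same time. None of the 12 hypoxia genes was called between urea and L-Glu (median -0.52), with every leave-one-out fit also at 0, and 4 were lower and 1 higher against SA. In the longer list of 44, drawn up after values were seen, 6 were lower and none higher than in L-Glu (median -0.47). Against SA, 10 of the 44 were lower and 4 higher (median -0.32). Over all genes 8.36% were called lower and 3.15% higher than in L-Glu, and 15.9% lower and 13.5% higher than in SA. Against mock, the medians of the 12 hypoxia genes were -2.16 in urea, -1.60 in L-Glu and -1.91 in SA, comparisons that share the mock libraries. The SA list was split, with 4 of 12 differences above 0 (HRE2 3.88, PDC1 1.18, ADH1 1.03 and SUS1 0.37), while 1 was in L-Glu and none in urea. In the cytokinin list 3 were called lower in urea than in L-Glu, and 3 lower and 1 higher than in SA, with medians of -0.08 and -0.50. The higher one was IPT5 (adjusted p = 0.0128, limma), not called without urea replicate 2 (0.0526). CRF5 was lower in urea than in L-Glu (-2.35, adjusted p = 0.000527, limma) and SA (-2.00, adjusted p = 0.0012). Both of its calls were kept without any single library. ARR5 was lower than in L-Glu (-1.89, adjusted p = 0.00723, limma), a call lost without urea replicate 3 (0.0902). Against SA it was not called (-1.07, adjusted p = 0.0962, limma). Against mock, the medians of the cytokinin list were -1.16 in urea, -0.66 in L-Glu and -0.56 in SA. In the nitrate list 4 of 24 were called higher and 3 lower than in L-Glu (median 0.19), and 4 higher and 9 lower than in SA (median -0.23). Its medians against mock were -0.77 in urea, -0.59 in L-Glu and -0.70 in SA. In the aliphatic glucosinolate list 7 of 11 were higher than in SA, and 1, CYP79F1 (adjusted p = 0.0181, limma), was higher than in L-Glu, a call lost without urea replicate 1 or 2 or L-Glu replicate 3. Several lists with calls above mock in urea also had them in the other treatments. Of all 20001 genes, 1683 were called higher than mock in L-Glu and 3431 in SA, and 2978 were called lower in SA. All 14 phosphate and 11 of 14 sulfur starvation genes were called higher in L-Glu. In SA 5 and 6 were, with 1 lower in each list. Of 13 suberin genes 3 were called higher in L-Glu and 10 in SA, and of 29 clock genes 8 and 6. The clock count in SA lay near the share of all genes called higher there. In urea 13 phosphate and 5 sulfur genes were lower than in L-Glu and none higher. Against SA, 1 phosphate gene was higher, and 3 sulfur genes were higher and 2 lower. The suberin list had no call against L-Glu, and the clock list 1 lower. Against SA, 1 suberin gene was higher and 3 lower, and 3 clock genes were higher and 2 lower. In the flavonoid list 11 of 21 were higher than in SA and none was called against L-Glu. A p that missed the threshold does not show that the treatments acted alike: for HB1 the log2 difference from L-Glu was -0.32, with a 95% interval from -0.98 to 0.33.

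Some genes did differ from both same-time groups in the direction of their change against mock, and examples are given here. Among others, FER1 was higher in urea than in L-Glu (1.67, adjusted p = 4.33e-05, limma) and SA (3.21, adjusted p = 4.21e-11). CRF5, WRKY18, SARD1 and AT1G55390 were lower than in both. The call of AT1G55390 against SA was lost without urea replicate 1 or 3 or SA replicate 1 or 2. NRT1.8 was at 0.156, 1.19 and 4.99 in urea, at 336, 68.3 and 330 in L-Glu 6 h and at 84.4, 60.6 and 77.1 in SA 6 h. It was the lowest in urea, between them in mock and highest in L-Glu, with log2 differences of -6.32 from L-Glu (adjusted p = 1.86e-09, limma) and -4.91 from SA (adjusted p = 1.72e-08). The stress gene SRO5 was at 5.76, 4.29 and 7.99 in urea, 26, 8.46 and 44.4 in L-Glu and 42.5, 43.9 and 43.5 in SA (-1.72, adjusted p = 0.0253, and -2.69, adjusted p = 0.000145, limma). SAG21 was at 81.4, 68.4 and 116 in urea, 207, 236 and 520 in L-Glu and 620, 411 and 879 in SA (-1.75, adjusted p = 0.00313, and -2.80, adjusted p = 2.18e-06, limma). In both genes every urea library lay below every L-Glu and SA library. GulLO2, a gulonolactone oxidase relative named after its values were seen, was higher in urea, at 135, 102 and 127, than in mock, at 22.1, 29.4 and 26.1, L-Glu, at 33.8, 64.9 and 72.4, and SA, at 21.0, 34.0 and 19.6. Its differences were 2.19, 1.14 and 2.28 in that order (adjusted p = 1.03e-05, 0.00474 and 9.04e-08, limma). The calls against L-Glu were lost for SRO5 without urea replicate 1 or 2 or L-Glu replicate 1 or 3, for SAG21 without L-Glu replicate 3 and for GulLO2 without L-Glu replicate 1, where the highest adjusted p (limma) was 0.229 for SRO5, 0.0582 for SAG21 and 0.0881 for GulLO2. Without the outlying L-Glu replicate 2 the differences from L-Glu were -7.08 for NRT1.8, -2.35 for SRO5, -1.91 for SAG21 and 1.27 for GulLO2.

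The calcium and proton exchanger CAX1, also named after its values were seen, lay between the other treatments. It was at 178, 160 and 164 in urea, 807, 578 and 461 in mock, 611, 295 and 502 in L-Glu and 100, 93.0 and 83.1 in SA, lower than in mock (-1.83, adjusted p = 9.45e-06, limma) and L-Glu (-1.42, adjusted p = 3.54e-05) and higher than in SA (0.86, adjusted p = 0.00415). DUR3 was at 64.9, 50.1 and 77.8 in L-Glu 6 h, overlapping urea (-0.28 ± 0.25, adjusted p = 0.558, limma), and at 224, 294 and 175 in SA 6 h, above every urea library (-2.10, adjusted p = 4.71e-08). The rise of DUR3 against mock was thus measured in all 3 treatments, with log2 differences of 1.37 in urea, 1.65 in L-Glu and 3.47 in SA. HAK5 was at 15.4, 14.3 and 17.2 in L-Glu and 1.58, 2.67 and 2.16 in SA, below every urea library, and was called against SA (3.84, adjusted p = 1.43e-05, limma) and not against L-Glu (1.42, adjusted p = 0.16). CYP71A12 was at 46.4, 53.8 and 79.6 in L-Glu and 0.602, 11.7 and 5.56 in SA, so it overlapped urea in the first and was lower in the second (3.34, adjusted p = 0.000104, limma). DIN2 was highest in SA, at 108, 505 and 237 (-2.65, adjusted p = 0.000668, limma).

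**Figure D4:**
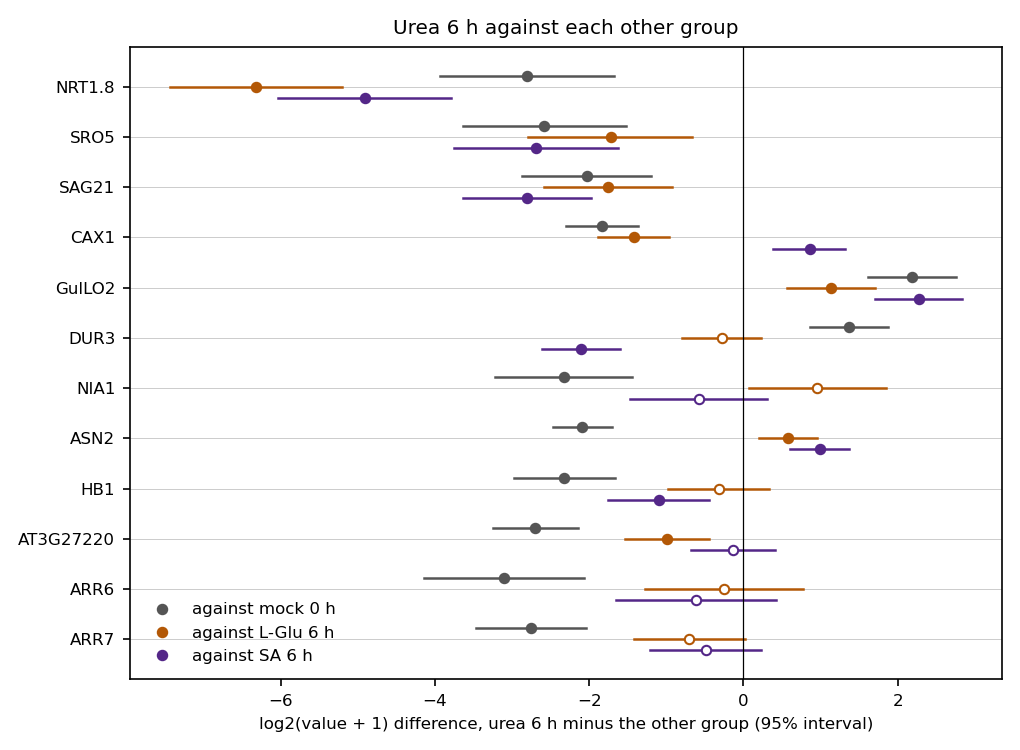
Log2(value + 1) difference of urea 6 h from mock 0 h (grey), L-Glu 6 h (orange) and SA 6 h (purple) for 12 genes, with 95% intervals, filled where called. NRT1.8, SRO5 and SAG21 are below 0 and GulLO2 above 0 against all 3 groups. The cytokinin regulators ARR6 and ARR7 are called against mock 0 h and not against the other treatments. CRF5 and ARR5 of the same list, not drawn here, were called lower in urea than in L-Glu, and CRF5 also than in SA.

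Most levels that were low at 6 h were also low later in urea. The mean log2(value + 1) over the hypoxia list was 5.95 to 6.89 in the 3 mock libraries, 4.33 to 4.64 at 6 h, 4.25 to 5.23 at 12 h, 4.04 to 4.37 at 24 h and 3.46 to 4.33 at 48 h, so no urea library reached mock. For the cytokinin list it was 4.80 to 5.41 in mock, 3.66 to 4.04 at 6 h and 3.62 to 4.26 at 48 h. The nitrate list was at 7.45 to 7.80 in mock, lowest at 6 h (6.70 to 6.91), and at 7.04 to 7.13 at 48 h. The photosynthesis list did not differ in range at 6 h (12.34 to 12.78 in mock and 12.45 to 12.65 in urea) and was at 11.23 to 11.30 at 48 h. DUR3 was at 55.4, 73.1 and 78.8 at 12 h, 100, 80.3 and 121 at 24 h and 230, 106 and 146 at 48 h, above mock in each library. DIN2 was at 173, 294 and 154 at 48 h, above its 6 h values, and GPAT5 was at 25.4, 20.9 and 14.3, within or below the range of its 6 h values. These later values are levels, given without a test.

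**Figure D5:**
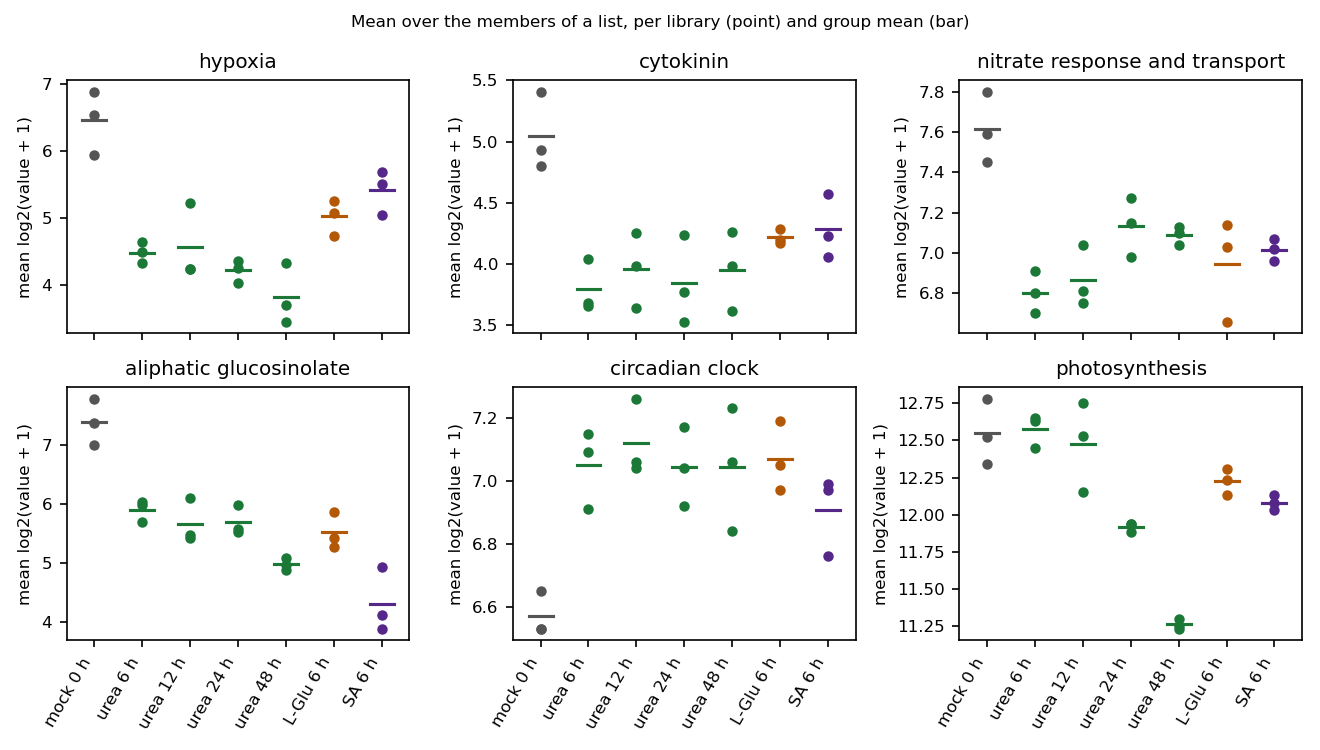
Mean log2(value + 1) over the members of 6 lists in each library (point), with group means (bar), in mock 0 h, the 4 urea times, L-Glu 6 h and SA 6 h; the vertical scales differ between panels. Every treated library lies below mock for hypoxia, cytokinin, nitrate and aliphatic glucosinolates and above it for clock genes, and photosynthesis is lower from 24 h in urea.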

How the data were processed

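The authors deposited one table of normalized signal values per gene and library, which are not whole numbers; their scaling is not stated in the sources used. Tools in the submitters' processing notes are HTSeq 0.6.0, TopHat2 2.1.0 and edgeR 3.22.3, with the build TAIR10. Only in some libraries did low values lie on steps, so read numbers could not be recovered and count models were not used; depth is unknown. Strand is not stated, so reads of a gene cannot be separated from those of an antisense or overlapping one. Groups and replicate numbers came from sample titles.

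Values were compared as log2(value + 1), which understates changes of low genes, with limma 3.58.1 in R 4.3.3. All 39 libraries and 13 group means entered one fit (26 residual degrees of freedom, intensity trend, two-sided tests), after a filter (3 libraries at 1 or more) that all 20001 genes passed. The spread is therefore shared with other groups. Alternatives changed pseudocount, filter, scaling (trimmed means, quantiles, totals), libraries in the fit, trend and replicate block.

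The members and lists were chosen with earlier results of these data known. Named are the 12 highest and 12 lowest changes among called genes whose replicates did not overlap and whose higher group averaged 10 or more, up to 4 members of each of 24 lists (called first, by size) and the urea genes; others were chosen after their values were seen, as were further called list members. Of 444 list entries 402 were used, 32 were not matched to a value and 10 had names that disagreed. RefSeq TAIR10.1 matched 19887 of 20001 identifiers; the table holds no coordinates, so those printed are RefSeq's.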

Additional observations from a re-analysis of the deposited data

Results flagged for a closer look

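For 6 named genes urea 6 h and another treatment at 6 h were each called against mock in opposite directions, and the difference between the treatments passed the test, all as log2(value + 1) differences with adjusted p-values from limma. Effects called in opposite directions differ widely by this choice, so the test of their difference is no independent support. NRT1.8 differed by -6.32 from L-Glu (adjusted p = 1.86e-09) and by -4.91 from SA (adjusted p = 1.72e-08). Against mock it was at -2.80 in urea, 3.52 in L-Glu and 2.11 in SA. The defence regulator WRKY18 differed by -2.39 from L-Glu (adjusted p = 1.66e-06) and by -3.90 from SA (adjusted p = 1.23e-11). SARD1, which activates salicylic acid synthesis, differed by -3.18 from L-Glu (adjusted p = 1.22e-08) and by -4.65 from SA (adjusted p = 2.61e-13). FER1 differed by 3.21 from SA (adjusted p = 4.21e-11), at 1.23 in urea and -1.99 in SA against mock. ADH1 differed by -2.90 from SA (adjusted p = 4.69e-07) and PDC1 by -3.18 (adjusted p = 9.43e-08). Both were named after their values were seen, outside the naming rule. Against mock both fermentation genes were lower in urea (-1.87 and -2.00) and higher in SA (1.03 and 1.18). All of these differences between treatments, which the choice favoured, kept their call without any single library of the groups compared. The urea calls against mock were less firm, and that of NRT1.8 alone was kept without any single library. They were lost for WRKY18 without urea replicate 1 or 2 or mock replicate 2, and for SARD1 without urea replicate 1 or 2 or mock replicate 1 or 2. FER1 lost it without urea replicate 1 or 3 or mock replicate 1, ADH1 without urea replicate 3 or mock replicate 1, and PDC1 without mock replicate 1. The calls of L-Glu and SA against mock were not refitted without single libraries.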

How the results depend on the processing

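Against mock 0 h, 353 genes were called in the fit of all libraries. The count was 679 in a fit of the groups compared alone and 726 with mock and the 4 urea groups, and the cause was not tested, while fewer libraries share the spread there by construction. Leaving out 1 library gave 131 to 281 genes. Pseudocounts, filters, scalings and the trend gave 272 to 472. Against L-Glu 6 h the 2304 genes became 1464 in the fit of the groups alone, and 1347 to 2882 without 1 library. Against SA 6 h the 5882 genes became 4688 to 5166 without 1 library, and 7141 in the groups alone. In the comparison with mock no called named gene changed direction under any alternative. Of 750 refits of named genes without 1 library 116 lost the call and 4 gained one. The 750 include refits of genes not called in the main fit, which could not lose a call. The share lost among called genes was therefore larger. Same-numbered libraries of urea and mock correlated in their deviations by 0.077, -0.04 and 0.015. These values show no pairing by number and do not exclude one. Replicate 2 alone lists no gene at exactly 0 in mock, urea 6 h, L-Glu 6 h and SA 6 h. The number thus carries some structure shared between groups, for a reason that is unknown. Against L-Glu (0.088 to 0.125) and SA (0.081 to 0.096) each urea library correlated best with its own number. With the replicate block 443, 2533 and 6222 genes were called against mock, L-Glu and SA in the fit of all groups, and 703, 2211 and 7976 with the replicate block in the groups compared alone. Depth is unknown, so precision rests on 3 libraries a group and on the spread shared across the fit.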
